A study of Mus musculus with 8 samples.

Results

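The 36 genes described here are grouped under fatty acid oxidation in mitochondria and peroxisomes. Some of them, such as the acyl-CoA thioesterases, act around the oxidation steps and not within them. The list is by gene name, with no threshold on a measured value, though it was drawn up with earlier results of these data known, and comes from the 18040 genes listed in either of the study's tables. Each of the 36 was listed in both tables and passed the filter on low counts in both. The samples were macrophages sorted for CD45, CD11b and F4/80 from the epididymal white adipose tissue (eWAT) of wild-type male C57BL/6J mice. Adhesion-related macrophages (ARMs) came from the floating adipocyte layer of collagenase-digested tissue, and stromal macrophages (SMs) from the stromal vascular fraction. Mice ate a normal chow diet (ND) or, from 6 weeks of age, a high-fat diet (HFD) for 8 weeks, and each of the 4 groups had 2 libraries, each pooled from 6 HFD or 10 ND mice. Libraries held 14508824 to 19040133 estimated counts. As each library was already a pool, the error terms measure the spread between pools and not between mice.

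Long-chain fatty acids enter mitochondria as carnitine esters, and Cpt1a controls that step. Inside, each turn of the β-oxidation spiral removes an acetyl unit through a dehydrogenase, a hydratase, a second dehydrogenase and a thiolase, and the electron transfer flavoprotein passes electrons to the respiratory chain. Peroxisomes shorten very long and branched chains with enzymes of their own and send the products to mitochondria. In adipose tissue, macrophages take up lipid released by adipocytes, and oxidation is one of its possible fates. The paper compared fatty acid oxidation genes and oxidation activity between ARMs and SMs on both diets, and reported no significant differences.

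None of the 36 member genes was called different between ARMs and SMs on either diet. In HFD mice, 0 of the 36 genes were called, where 4.75% of the 13337 genes tested were called at a fold over 1.5 and an adjusted p under 0.05 (edgeR's quasi-likelihood test, Benjamini-Hochberg adjustment). In ND mice, 0 of 36 were called against 3.68% of the 12441 genes tested. At these shares few of 36 genes would be called, so the counts of 0 cannot tell the members from other genes. No member reached an adjusted p under 0.05 at any fold, against 9.55% of genes in HFD mice and 4.73% in ND mice. DESeq2 also called 0 members on each diet. At an unadjusted p under 0.05, edgeR had 2 members in HFD mice (background 23.2%) and 0 in ND mice (background 14.9%), and DESeq2 had 1 and 0.

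The changes were also bounded. The 95% interval of the ARM over SM fold lay wholly within 1.5-fold of equality for 32 of 36 members in HFD mice and 34 of 36 in ND mice, against 68.0% and 65.4% of all genes tested. The exceptions were Acad10, Pecr, Acot1 and Acot2 in HFD mice and Pecr and Acot1 in ND mice, all of them among the least expressed members. With DESeq2, 31 of 36 intervals on HFD and 29 of 36 on ND lay within 1.5-fold. Interval width depends on counts, and the background was not matched to the members by level. These shares therefore do not show that the members were steadier than other genes. The median log2 fold change of the members was -0.0035 on HFD and -0.068 on ND, beside -0.0064 and -0.016 over all genes tested. The HFD median changed sign with scaling, to 0.025 with library totals and 0.021 with upper-quartile normalization. Member values spanned -0.32 to 0.32 in HFD mice and -0.27 to 0.70 in ND mice. On CPM (counts scaled to the library total times its TMM factor), both ARM libraries lay above both SM libraries for 4 members in HFD mice and below them for 10. The background was 26.3% and 26.4% of genes, and 52.7% in either direction. In ND mice 3 members lay above (background 21.2%) and 12 below (background 22.8%), where 44.0% of all genes did not overlap.

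**Figure D1:**
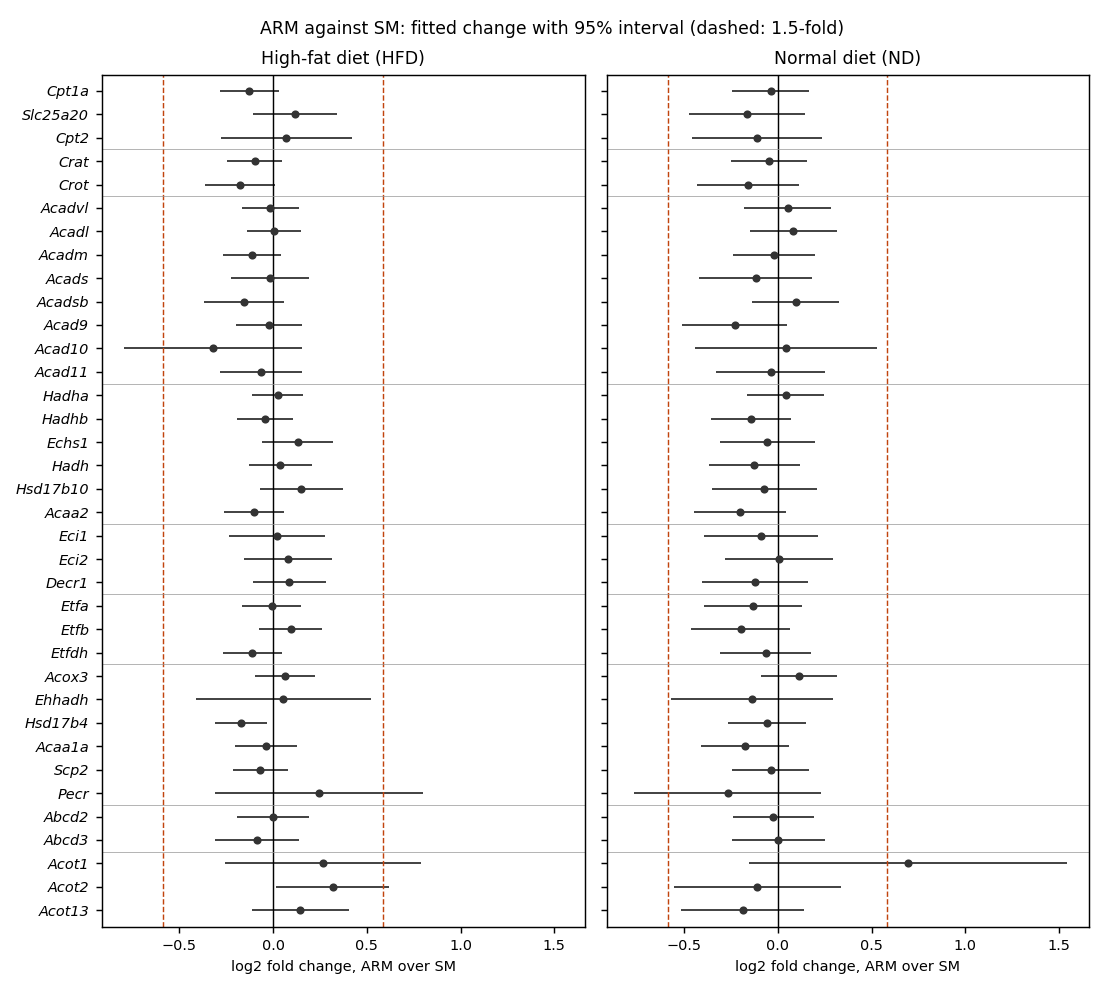
Fitted log2 fold change of ARM over SM (x axis) for each member gene (y axis, grouped by role from the carnitine shuttle at the top to the thioesterases at the bottom), with its 95% interval, in HFD (left) and ND (right) mice. Dashed lines mark a 1.5-fold change, and 32 intervals on HFD and 34 on ND lie between them.

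The carnitine shuttle was led by the most highly expressed member of the whole pathway. Cpt1a (Entrez 12894, chromosome 19:3322326-3385735 in GRCm38) stood at 69.6 and 78.8 FPKM in HFD SMs and at 69.4 and 69.2 in HFD ARMs. In ND mice it stood at 65.7 and 65.6 FPKM in SMs and at 60.9 and 66.6 in ARMs. The ARM libraries were just below the SM libraries on HFD and overlapped them on ND, with log2 fold changes of -0.13 (95% interval -0.29 to 0.03, adjusted p = 0.331) and -0.04 (-0.24 to 0.17, adjusted p = 0.920). Slc25a20, the carnitine-acylcarnitine carrier of the inner membrane, and Cpt2, which returns the acyl group to coenzyme A, were expressed at lower levels, and neither differed by the test. Cpt2 ranged from 3.55 to 4.85 FPKM over the HFD libraries and from 5.53 to 7.37 over the ND libraries.

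Of the acylcarnitine transferases, Crat, which acts on short chains, had a level of 32.9 to 36.8 FPKM over the 8 libraries. Crot, the peroxisomal enzyme that prepares shortened chains for export, had 9.31 and 8.70 FPKM in HFD SMs and 7.80 and 8.40 in HFD ARMs. Its groups did not overlap, but the log2 fold change of -0.18 (-0.36 to 0.01) had an adjusted p of 0.245.

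The 8 acyl-CoA dehydrogenases, which take the first electrons from chains of different length, had log2 fold changes between -0.32 and 0.01 in HFD mice and between -0.23 and 0.10 in ND mice. The long-chain enzymes Acadvl and Acadl and the medium-chain enzyme Acadm were the best expressed of them, at 19.9 to 34.6 FPKM. Acadl stood at 33.2 and 32.7 FPKM in HFD SMs against 32.9 and 34.6 in HFD ARMs, an interval of 0.909-fold to 1.11-fold. The lowest dehydrogenase, Acad10, had 1.07 and 1.53 FPKM in HFD SMs and 1.09 and 1.19 in HFD ARMs. Its HFD log2 fold change of -0.32 (-0.80 to 0.15, adjusted p = 0.419) and its ND value of 0.04 (-0.44 to 0.53, adjusted p = 0.964) are therefore loosely bounded.

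The trifunctional protein, which carries out the last steps on long chains, is made of an α subunit from Hadha and a β subunit from Hadhb. The genes lie head to head on chromosome 5 (Hadha at 30119423-30154980 on the minus strand, Hadhb at 30155253-30184593 on the plus strand), with 272 bases between their RefSeq starts. That stretch is shown because both genes are transcribed outward from it and their levels parted between the diets. It is 60.3% G and C with 18 CpG sites, and capitals mark the bases that fall in the promoter windows (250 bases before to 50 after the start) of both genes.
chr5:30154981-30155252, plus strand, GRCm38.p6: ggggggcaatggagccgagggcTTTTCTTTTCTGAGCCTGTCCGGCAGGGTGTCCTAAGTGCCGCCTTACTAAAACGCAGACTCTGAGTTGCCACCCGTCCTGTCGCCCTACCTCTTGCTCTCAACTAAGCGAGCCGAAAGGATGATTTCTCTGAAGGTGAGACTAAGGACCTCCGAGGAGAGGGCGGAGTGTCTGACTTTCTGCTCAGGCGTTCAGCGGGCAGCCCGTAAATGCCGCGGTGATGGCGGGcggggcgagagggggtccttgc
Hadha had 38.7 and 40.1 FPKM in HFD SMs, 41.1 and 40.7 in HFD ARMs, 42.7 and 39.0 in ND SMs and 41.4 and 42.6 in ND ARMs. All 8 libraries thus fell in a narrow band for the α subunit. Its log2 fold changes of ARM over SM were 0.02 (-0.11 to 0.16, adjusted p = 0.868) on HFD and 0.04 (-0.16 to 0.25, adjusted p = 0.905) on ND. Hadhb had 31.0 and 29.8 FPKM in HFD SMs, 29.1 and 31.3 in HFD ARMs, 43.8 and 39.7 in ND SMs and 39.2 and 36.3 in ND ARMs, so every HFD library was below every ND library. Within each diet the β subunit gene was not called. Between ARM and SM, Hadhb had log2 fold changes of -0.05 (-0.19 to 0.10, adjusted p = 0.757) on HFD and -0.14 (-0.36 to 0.07, adjusted p = 0.593) on ND. The ratio of Hadhb to Hadha within a library, which needs no scaling for depth, was 0.708 to 0.800 in FPKM over the HFD libraries and 0.852 to 1.024 over the ND libraries. As raw counts the ratio was 0.375 to 0.423 and 0.442 to 0.530, so the diets did not overlap on either scale. Counts of Hadhb were not whole numbers on HFD but were whole on ND, while those of Hadha were whole on both. The ratio does not remove such a difference, and its part was not tested.

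Echs1, Hsd17b10 and Acot2 lay on opposite sides of equality on the 2 diets, and none passed an adjusted p under 0.05 on either. Echs1, the short-chain enoyl-CoA hydratase, had 13.2 and 13.4 FPKM in HFD SMs against 14.4 and 15.4 in HFD ARMs, and 19.39 and 19.41 in ND SMs against 18.6 and 18.8 in ND ARMs. Hsd17b10, a dehydrogenase for short and branched chains, had 18.2 and 16.7 against 18.7 and 20.8 FPKM on HFD and 24.4 and 23.9 against 22.6 and 23.5 on ND. Acot2, a mitochondrial thioesterase that releases free fatty acid from coenzyme A, had 3.69 and 3.17 against 4.24 and 4.48 on HFD and 2.68 and 2.91 against 2.55 and 2.66 on ND. For each of these, the ARM libraries were above the SM libraries on HFD and below them on ND. They were picked after their values were seen, and the share of all genes with this pattern was not counted. The difference between diets in the log2 fold change was 0.17 (-0.11 to 0.46) for Echs1, 0.21 (-0.12 to 0.53) for Hsd17b10 and 0.41 (-0.07 to 0.89) for Acot2, with adjusted p of 0.872, 0.860 and 0.744. Other members, such as Slc25a20 and Pecr, also changed sign between the diets. Pecr had the highest difference of any member, 0.50 (-0.24 to 1.24, adjusted p = 0.839). Over all members, 0 of 36 differed between diets in this fit of 8 libraries, against 0.165% of the 13358 genes tested. At that share 36 genes would seldom hold a call, so this count cannot tell the members from other genes. At an unadjusted p under 0.05 there were 0 members by edgeR (background 7.61%) and 0 by DESeq2, and 27 of 36 intervals of the difference lay within 1.5-fold.

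The auxiliary enzymes for unsaturated chains, Eci1, Eci2 and Decr1, and the electron transfer flavoprotein genes gave no call. Etfb, its β subunit, was among the 5 highest members, at 48.1 and 48.9 FPKM in HFD SMs, 49.5 and 56.1 in HFD ARMs, 54.8 and 46.3 in ND SMs and 47.3 and 41.0 in ND ARMs. Its log2 fold change was 0.09 (-0.08 to 0.26, adjusted p = 0.525) on HFD and -0.20 (-0.46 to 0.07, adjusted p = 0.538) on ND. Etfdh, which hands the electrons to ubiquinone, stayed between 15.1 and 17.1 FPKM in all 8 libraries.

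Among the peroxisomal enzymes, Hsd17b4 and Scp2 were among the 5 highest members in SMs of both diets. Hsd17b4, the multifunctional protein that acts on branched and very long chains, had 44.6 and 45.6 FPKM in HFD SMs and 41.5 and 40.2 in HFD ARMs. The groups did not overlap, and the HFD log2 fold change of -0.17 (-0.31 to -0.03) had the smallest p of any member (unadjusted p = 0.0222, adjusted p = 0.132). In ND mice Hsd17b4 had 58.4 and 54.4 FPKM in SMs and 56.7 and 51.3 in ARMs, with a log2 fold change of -0.06 (-0.27 to 0.15, adjusted p = 0.857). Scp2, whose long product is a peroxisomal thiolase and whose short product is a sterol carrier, had 46.6 and 42.9 FPKM in HFD SMs and 43.2 and 43.9 in HFD ARMs. Its levels in ND mice were 62.3 and 60.6 in SMs and 62.8 and 56.8 in ARMs. The log2 fold changes were -0.07 (-0.21 to 0.08, adjusted p = 0.617) and -0.04 (-0.24 to 0.17, adjusted p = 0.916). Ehhadh, the bifunctional enzyme of straight chains, was near the bottom of the order, at 1.07 to 1.40 FPKM over the HFD libraries and 1.93 to 2.16 over the ND libraries. Its log2 fold change was 0.06 (-0.41 to 0.52, adjusted p = 0.917) on HFD and -0.14 (-0.57 to 0.30, adjusted p = 0.838) on ND. The transporters Abcd2 and Abcd3, which carry acyl-CoA into peroxisomes, had ARM over SM intervals inside 1.5-fold on both diets.

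Among the thioesterases, Acot1 on ND had the widest interval of any member on either diet. Acot1 and Acot2 are near-identical neighbours on chromosome 12 (Acot2 at 83987861-83993877, Acot1 at 84009502-84017670), and their counts were not whole numbers in either table, so the split of reads between them is uncertain. Acot2 in HFD mice was the only other member with an unadjusted p under 0.05, with a log2 fold change of 0.32 (0.01 to 0.62, unadjusted p = 0.0414, adjusted p = 0.195). Acot1 had 1.57 and 2.27 FPKM in HFD SMs and 2.21 and 2.51 in HFD ARMs, and its log2 fold change was 0.27 (-0.26 to 0.79, adjusted p = 0.562). In ND mice it had 0.68 and 1.0 FPKM against 1.03 and 1.66, a value of 0.70 (-0.15 to 1.54, adjusted p = 0.476). Over the pathway, counts were not whole for 12 members in the HFD table and 5 in the ND table.

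**Figure D2:**
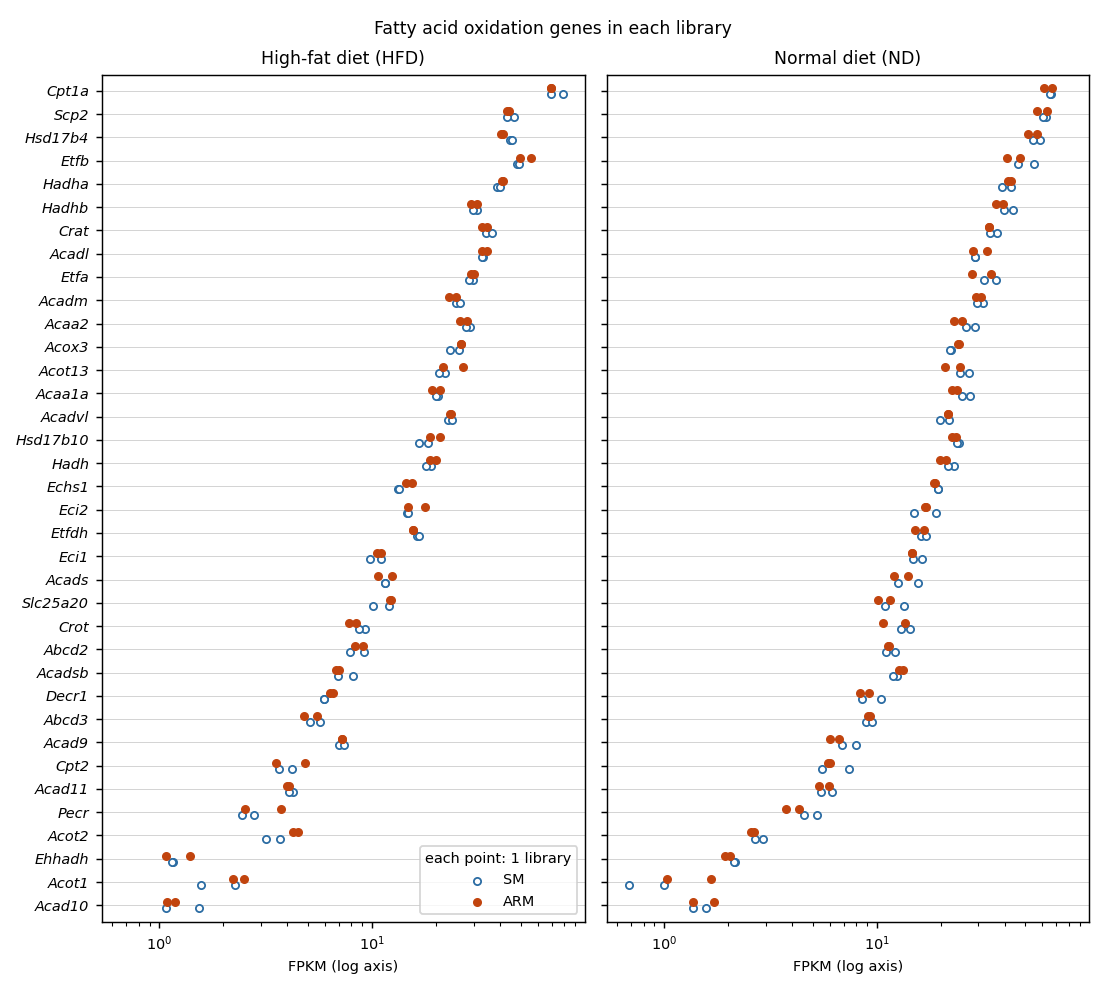
FPKM (log axis) of each member in each library, HFD mice on the left and ND mice on the right, with open points for SM and filled points for ARM. Levels run from Acot1, at 0.68 to 2.51, Acad10 and Ehhadh at the bottom up to Cpt1a, at 60.9 to 78.8, and the ARM and SM points of a gene lie close together.

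The summed level of the members was 1491 and 1526 TPM in HFD SMs, 1466 and 1531 in HFD ARMs, 1672 and 1601 in ND SMs and 1624 and 1564 in ND ARMs. ARM and SM libraries overlapped on both diets, with an ARM over SM ratio of 0.993 on HFD and 0.974 on ND. Markers of adipocytes moved with the cell type in the same libraries. Their sum was 363 and 284 TPM in HFD SMs against 987 and 1114 in HFD ARMs, and 259 and 366 in ND SMs against 481 and 740 in ND ARMs, and 11 of 14 and 9 of 14 tested markers were called higher. Fabp4 was the largest part of the sum in every library. It had 138 and 97.4 FPKM in HFD SMs and 359 and 414 in HFD ARMs, where no other listed marker passed 21.1. The paper counts Fabp4 among the fatty acid transport genes of ARMs, so the sum is not a measure of adipocyte RNA alone. Fibroblast and progenitor markers were called higher for 5 of 8 genes on HFD and 6 of 8 on ND, endothelial markers for 9 of 10 and 1 of 10, and mesothelial markers for 0 of 5 and 4 of 5. Of the neutrophil markers, 1 of 4 tested on ND, S100a9, was called lower in ARMs (log2 fold change -1.43, adjusted p = 0.0119), and 0 of 3 were called on HFD. Of 2 tested lymphocyte markers, 0 were called on either diet. Of the 10 macrophage markers, 0 were called on either diet (edgeR). The part of these other transcripts in the members' values was not tested, and in bulk samples a change in the number of cells of a type cannot be told apart from a change in RNA per cell.

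**Figure D3:**
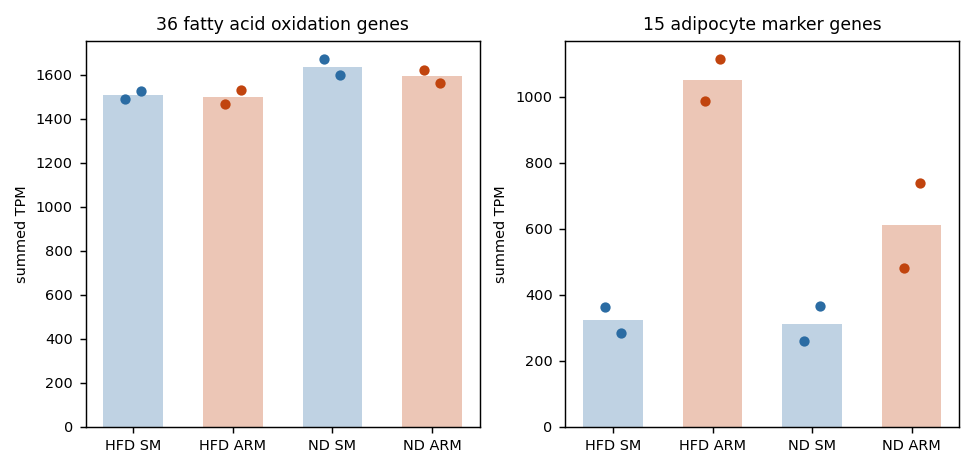
Summed TPM (y axis, from 0) of the 36 member genes (left) and of the adipocyte marker list (right, Cidea not listed in ND) in each library, with bars for the mean of 2 libraries. The members lie between 1466 and 1672 in every group, while the adipocyte markers reach 1114 in HFD ARMs against at most 366 in SMs. Fabp4 is the largest part of the adipocyte marker sum in each library.

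The levels of many members stood apart between the diets. The HFD and ND tables were made differently, with 32.3% to 32.9% of counts not whole in the HFD libraries and 8.55% to 9.36% in the ND libraries, so diet and table cannot be told apart and no test is given. On FPKM the median log2 ratio of HFD over ND for all genes was -0.10 in ARMs and -0.12 in SMs, and on CPM it was 0.0021 and 0.020. The members' medians were -0.19 and -0.28 on FPKM and -0.05 and -0.11 on CPM, so they lay below the median of all genes on both scales. For 14 of 36 members (38.9%), all 4 HFD libraries were below all 4 ND libraries on FPKM, TPM and CPM alike, against 20.1% of all genes. For 3 members (8.3%) they were above on all of these scales, against 15.2%. The single scales gave different splits. On FPKM, 16 members were below (background 30.6%) and 3 above (background 15.5%). On TPM, 16 were below (background 26.4%) and 4 above (background 17.7%), and on CPM 14 were below (background 20.9%) and 7 above (background 22.6%).

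The 14 genes with the lower HFD levels came from most steps of the pathway. They were Cpt2 of the carnitine shuttle, Crot, the dehydrogenases Acadm, Acadsb and Acad11, the spiral enzymes Hadhb and Echs1, and Eci1 and Decr1 for unsaturated chains. On the peroxisomal side they were Ehhadh, Hsd17b4 and Scp2 of 6 enzymes, and both transporters, Abcd2 and Abcd3. Their log2 ratios in ARMs ranged from -0.92 to -0.32 on FPKM and from -0.84 to -0.18 on CPM. In SMs they ranged from -0.90 to -0.27 and from -0.79 to -0.12. Abcd3 had 5.67 and 5.08 FPKM in HFD SMs and 4.81 and 5.49 in HFD ARMs, against 8.89 and 9.52 in ND SMs and 9.33 and 9.11 in ND ARMs. Acadsb, the short and branched-chain dehydrogenase, had 8.12, 6.91, 7.01 and 6.75 FPKM in the same order of HFD libraries and 12.4, 11.9, 13.3 and 12.7 in that of ND libraries. In both genes the gap between the diets was wider than the spread among the libraries of either diet. Among the 14 genes, Crot, Acad11, Hadhb, Eci1 and Abcd2 had counts that were not whole on HFD but whole on ND. The part of this in their lower levels was not tested.

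The 3 genes above on HFD were Cpt1a, Acadvl and Acot2, which act at the entry, at the first dehydrogenation and at the release of free acid. Their log2 ratios on FPKM were 0.12 in ARMs and 0.18 in SMs for Cpt1a, 0.11 and 0.15 for Acadvl, and 0.74 and 0.30 for Acot2. For Acot2 the split of reads with Acot1 is uncertain, as given above. Genes that act on long chains fell on both sides, as Cpt2 and Hadhb were among the lower genes. Hadha in ARMs was at -0.04 on FPKM and 0.03 on CPM, and Etfb in SMs at -0.06 and 0.21, so the sign of these rested on the scale. The gene length that FPKM implies, HFD over ND, ran from 0.974 (Crat) to 1.23 (Acot13).

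**Figure D4:**
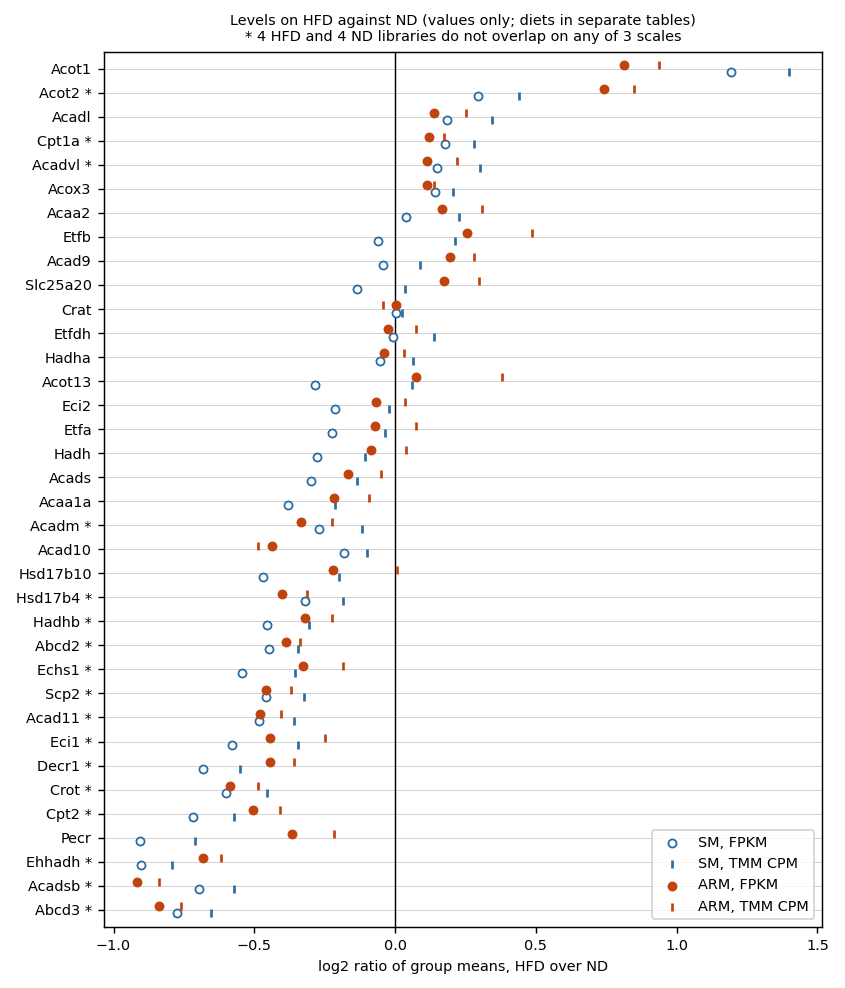
Log2 ratio of the group means on HFD over ND (x axis) for each member (y axis), as points for FPKM and ticks for TMM CPM, in SM (blue) and ARM (red). The 14 genes marked with a star on the left of 0 and the 3 on the right have HFD and ND libraries that do not overlap on FPKM, TPM or CPM.

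Around the members, 86 further genes of acyl-CoA synthesis, peroxisome assembly, other oxidation steps and their regulation were listed. In HFD mice 71 were tested and 3 were called, all higher in ARMs, and in ND mice 70 were tested and 0 were called by edgeR. Over all genes, 4.46% were called higher and 0.292% lower on HFD, and 3.55% and 0.129% on ND. At an adjusted p under 0.05 at any fold (edgeR), 4 of the 71 were higher and 3 lower in HFD ARMs. Over all genes the share was 9.55% in either direction, so these counts do not set the list apart from other genes. Pparg, a nuclear receptor that is a master regulator of adipocytes, had 9.10 and 8.75 FPKM in HFD SMs and 13.4 and 15.6 in HFD ARMs, and its log2 fold change was 0.67 (0.47 to 0.86, adjusted p = 0.00134). Acacb, whose product malonyl-CoA inhibits Cpt1, had 13 and 12 counts in HFD SMs and 28 and 40 in HFD ARMs, and its log2 fold change was 1.46 (0.66 to 2.25, adjusted p = 0.0302). Acss3, an acyl-CoA synthetase for short chains, had 4 and 2 counts against 13 and 14, and the ratio of the pooled counts was 4.66 with an exact 95% interval of 1.89 to 13.8 that covers counting error only. Below 1.5-fold but past an adjusted p of 0.05 in HFD mice were Acsl1, which activates long chains, at 0.26 (adjusted p = 0.0390), and, lower in ARMs, the coactivator Ppargc1b at -0.40 (adjusted p = 0.0171), the kinase Pdk4 at -0.35 (adjusted p = 0.0318) and the acetyl-CoA synthetase Acss1 at -0.26 (adjusted p = 0.0401). Adipocyte markers rose in the same ARM libraries, as given above, and their part in the Pparg, Acacb and Acss3 values was not tested. On ND, those of the named genes that were tested by edgeR had the same signs. Log2 fold changes there were 0.27 for Pparg (adjusted p = 0.463), 1.24 for Acacb (0.132) and 0.27 for Acsl1 (0.190). Lower in ND ARMs were Ppargc1b at -0.18 (0.718), Pdk4 at -0.18 (0.732) and Acss1 at -0.27 (0.324). Acss3 was not tested on ND, with 3 and 6 counts in SMs against 10 and 21 in ARMs.

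Genes of fatty acid oxidation are known targets of PPAR and RXR pairs, which bind copies of AGGTCA set 1 base apart. Promoter windows from RefSeq (GRCm38.p6, 250 bases before to 50 after the start) were at hand for 29 of the 36 members. With at most 1 mismatch in the 12 bases of the 2 copies, on either strand, 0 of the 29 windows held this motif, against 0.644% of 27025 genes. At that share 29 windows would seldom hold a match, so this count cannot tell the members from other genes. The search was planned at up to 1 mismatch, and a looser setting of up to 2 was added. With it, 3 of the 29 members held a match, against 4.40% of all genes, again a small count. These 3 are shown with capitals for the bases that equal the motif.
Slc25a20, chr9:108662142-108662154, plus strand: AGGTgAaAGGTCg
Echs1, chr7:140116492-140116504, minus strand: AGGTCAcgGGTCc
Etfa, chr9:55512308-55512320, plus strand: AGGgCAaAGGTaA
A match describes letters only, and windows further from the start were not searched.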

How the data were processed

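RNA was sequenced from 8 libraries, 2 each of ARMs and SMs (NARM in the labels) on ND and HFD. Per the labels the reads were placed on mm10 (submitters' processing notes), and the aligner, counter and annotation are not given in the sources used here. The authors deposited, separately by diet, the estimated count, FPKM and TPM of every gene and library. The members and gene lists were chosen with earlier results of these data known. Estimated counts were rounded and fitted per diet with edgeR 4.0.16 in R 4.3.3 (TMM, filterByExpr, quasi-likelihood test, Benjamini-Hochberg adjustment). Intervals of 95% came from that test's F statistic. The difference between diets was fitted over all 8 libraries. The pipeline was tested on simulated counts. Genes named in full are the 5 highest and 3 lowest members in SMs of each diet, any called, and pathway genes called. Echs1, Hsd17b10, Acot2, Acadsb, Abcd3 and other members were chosen after their values were seen. Alternatives were DESeq2 1.42.0, limma 3.58.1 on log2(FPKM + 1) and log2(FPKM + 0.1), and those given in the closing section. Protein sequences were not analysed here. Promoter letters came from RefSeq. Figures used matplotlib 3.10.9.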

Additional observations from a re-analysis of the deposited data

How the results depend on the processing

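No member was called under any of the 14 alternative fits on either diet, or at the threshold of the methods section (log2 fold change over 0.6 and unadjusted p under 0.05), and the smallest adjusted p over them was 0.0941 on HFD and 0.217 on ND. These were DESeq2, scaling by library totals or by the upper quartile, every gene with any count, a minimum of 10 counts per library, limma on FPKM with either pseudocount and without the filter, one fit of 8 libraries, the replicate block and each library left out. In the same fits the count over all genes ran from 35 to 680 on HFD and from 0 to 786 on ND, so some of them have little power. Values of single members changed sign in 47 of 504 cases on HFD and 23 of 504 on ND, and 7 and 5 of these moved by over 1 standard error. The replicate numbers were not shown to pair the samples (correlation of same-numbered deviations -0.028 on HFD and 0.221 on ND, 2 pairs each). With the replicate block, 0 members were called on each diet and 0 differed between diets, the medians were -0.0022 and -0.068, and all genes called were 673 on HFD and 786 on ND, where the fit without the block called 458. Leaving out 1 library kept the members called at 0 and gave medians from -0.063 to 0.022 on HFD and from -0.08 to -0.05 on ND. The lowest HFD median was the one without HFD ARM replicate 2. Intervals inside 1.5-fold numbered 30 to 32 on HFD and 24 to 31 on ND in those fits. Members above ND in all HFD libraries numbered 3 on FPKM, 4 on TPM and 7 on CPM, a scale added after the data were seen, and 3 to 5 with 1 library left out (5 without HFD SM replicate 1 or without ND SM replicate 1). Members below numbered 16 on FPKM and on TPM, 14 on CPM and 16 to 20 with 1 library left out. With 2 libraries a group, exact tests cannot give a two-sided p under 0.333, and the least expressed members, Acot1, Pecr, Acad10 and Ehhadh, have wide intervals.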
